A study of Arabidopsis thaliana with 12 samples.

Results

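Transcript levels were compared between msg2 and wild-type Arabidopsis thaliana seedlings that had both been grown with a brassinosteroid. The comparison used the 2 arrays of msg2 seedlings grown in darkness for 4 days on medium with 100 nM 24-epibrassinolide (24-eBL) and the 2 arrays of wild-type (Columbia) seedlings grown in the same way, which are 4 of the 12 Affymetrix ATH1 arrays in the study. The members are all 22746 gene probe sets of the array, and each change is the log2 signal of msg2 minus that of wild type. The other 8 arrays, with 2 in each group, hold msg2 without 24-eBL (mock), wild type without 24-eBL, axr2 with 24-eBL and axr2 without 24-eBL. All groups were given cold for 3 days and light for 8 h before darkness, on medium with 2% sucrose. RNA came from whole seedlings, so fewer cells of a type and less RNA per cell cannot be told apart in any value given here. The submitters described the 2 arrays of a group as biological replicates. The labels do not state which allele of msg2 was used.

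As background, auxin acts by causing the breakdown of Aux/IAA proteins, which otherwise hold auxin response factors inactive. The msg2 mutants carry a dominant change in the Aux/IAA protein IAA19 that keeps the protein stable, and axr2 mutants carry a change of the same kind in IAA7. Brassinosteroids act through the receptor kinase BRI1 and transcription factors of the BZR1 family, and in dark-grown seedlings they promote elongation of the hypocotyl together with auxin and gibberellin. Many genes of cell expansion respond to both hormones, which is the setting in which msg2 and wild type were grown with 24-eBL. IAA19 was not analysed here, because no probe set was paired with it alone, and a dominant change in the protein need not alter the transcript.

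The arrays of a group were more alike than arrays of different genotypes. Over all 15025 probe sets tested the Pearson correlation was 0.975 between the msg2 arrays with 24-eBL and 0.972 between the wild-type arrays with 24-eBL, and it was 0.950 to 0.960 between the genotypes. None of the 4 arrays stood apart, and their medians were 6.93 and 6.96 in msg2 and 7.07 and 6.93 in wild type. Few of the cell-type markers chosen to check the seedling label had a probe set of their own: 1 of 19 light-induced genes, 3 of 10 root-hair genes, 3 of 5 lateral-root genes and 3 of 5 stomatal genes. The etiolation, endodermis, xylem and seed storage markers had none. The light-induced LHCB4.1, an antenna protein of photosystem II, had 12.79 and 12.37 in msg2 and 12.53 and 12.69 in wild type. It was thus bright, far above the array medians, and with no light-grown arrays it could not check growth in darkness. The stomatal genes FAMA, SPCH and MUTE were dim on all 12 arrays. The summed linear signal of the root-hair genes was 182.1 and 103.7 in msg2 and 176.7 and 183.4 in wild type. That of the lateral-root genes was 168.9 and 193.9 in msg2 and 193.6 and 222.8 in wild type. On these 4 arrays the root-hair genes EXPA7 and GH9C1 and the lateral-root genes LBD29 and PUCHI were dim. Only EXPA18 and LBD16 were not, so the sums hold little signal of the other members.

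With 24-eBL, 1128 of 15025 tested probe sets (7.51%) differed between msg2 and wild type in the limma fit of all 12 arrays at a Benjamini-Hochberg adjusted p under 0.05. Of these 610 were higher in msg2 (4.06% of those tested) and 518 were lower (3.45%). Which direction held more calls depended on the processing: 682 were higher and 405 lower after median centring, 565 and 584 with dim values raised, and 511 and 536 with the compared arrays alone. Without msg2 replicate 1 the split was 165 and 205. Among the calls 201 were higher and 195 lower by at least 2-fold. The median change was 0.81 over the called rises and −0.89 over the called falls, against −0.02 over all tested probe sets. The arrays did not overlap between the genotypes for any of the 1128 calls, but the same was true of 49.6% of all tested probe sets. The number of calls rested on each of the compared arrays: it was 370 without msg2 replicate 1, 632 without msg2 replicate 2, 526 without wild-type replicate 1 and 630 without wild-type replicate 2. Of the 8150 tested probe sets that were paired with exactly 1 gene 552 were called (6.77%), 296 higher (3.63%) and 256 lower (3.14%). The genes named below and the members of the lists are from these 8150. Shares of all tested probe sets, and counts of calls not tied to a list or gene, are over the 15025 unless stated. The called share was 6.45% to 7.61% on the 5 nuclear chromosomes, judged by locus name.

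Values below are log2 signals, given for replicates 1 and 2 of each group, and changes are log2 changes ± SE from the fit with 2 arrays a group. A value is called dim where it does not exceed its own array's 40th percentile. Where the lower genotype held a dim value, the fold is a lower bound, computed with that value raised to the percentile. Each call with 24-eBL stayed past the threshold without any single array, except where arrays are named beside it. In a fit without the intensity trend 19 of the 78 named calls with 24-eBL were lost (adjusted p up to 0.149): AT4G29030, AT1G29090, GH3.17, EXPA8, EXLA2, CSLC5, CSLC04, GID1B, LEA18, GI, OLEO3, TET6, AT3G16080, AT3G07110, AT2G43610, AT2G29340, rpoC1, atpA and AT3G23170.

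QQS, an orphan gene of Arabidopsis that affects starch content, fell most. It had 5.90 and 4.81 in msg2 and 9.53 and 9.58 in wild type, so that both msg2 arrays were dim and lay far below both wild-type arrays. QQS was at least 11.2-fold lower (−4.20 ± 0.29, adjusted p = 1.13e-07). It was similarly low in msg2 without 24-eBL, with 4.64 and 4.73 against 8.98 and 9.46 in wild type. On the axr2 arrays it stood higher than in wild type, at 11.41 and 11.62 with 24-eBL and 11.00 and 11.76 without, so the mutants lay on opposite sides of wild type.

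UPB1 (UPBEAT1), a bHLH transcription factor that represses peroxidase genes in roots, also fell in msg2. It had 7.20 and 7.08 in msg2 and 9.72 and 10.06 in wild type, a 6.71-fold lower level (−2.75 ± 0.31, adjusted p = 1.98e-05) with no overlap. ECS1 had 7.20 and 7.14 in msg2 and 9.09 and 10.30 in wild type, and was 5.75-fold lower (−2.52 ± 0.31, adjusted p = 3.87e-05). For ECS1 the 2 wild-type arrays lay further apart than the msg2 arrays, but both were above them. PDF1.4, a plant defensin gene, had 7.05 and 7.37 in msg2 and 9.78 and 9.58 in wild type, and was 5.54-fold lower (−2.47 ± 0.24, adjusted p = 3.40e-06). AT1G19900 had 7.42 and 7.50 in msg2 and 9.62 and 9.80 in wild type, and was 4.76-fold lower (adjusted p = 5.80e-06). AT1G72290, of the Kunitz protease inhibitor family, had 5.89 (dim) and 6.74 in msg2 and 9.23 and 8.72 in wild type. It was at least 6.0-fold lower (−2.66 ± 0.64, adjusted p = 0.0165), but lost its call without wild-type replicate 1, wild-type replicate 2 or msg2 replicate 1 (adjusted p up to 0.176). The other large falls were in CHI, AT3G18250, AT5G47610, AT5G03350, AT4G01870 and AT5G17780, by 3.29-fold to 3.96-fold. AT5G03350, of the legume lectin family, had 7.62 and 8.20 in msg2 and 9.65 and 9.80 in wild type (−1.82 ± 0.30, adjusted p = 0.000932).

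**Figure D1:**
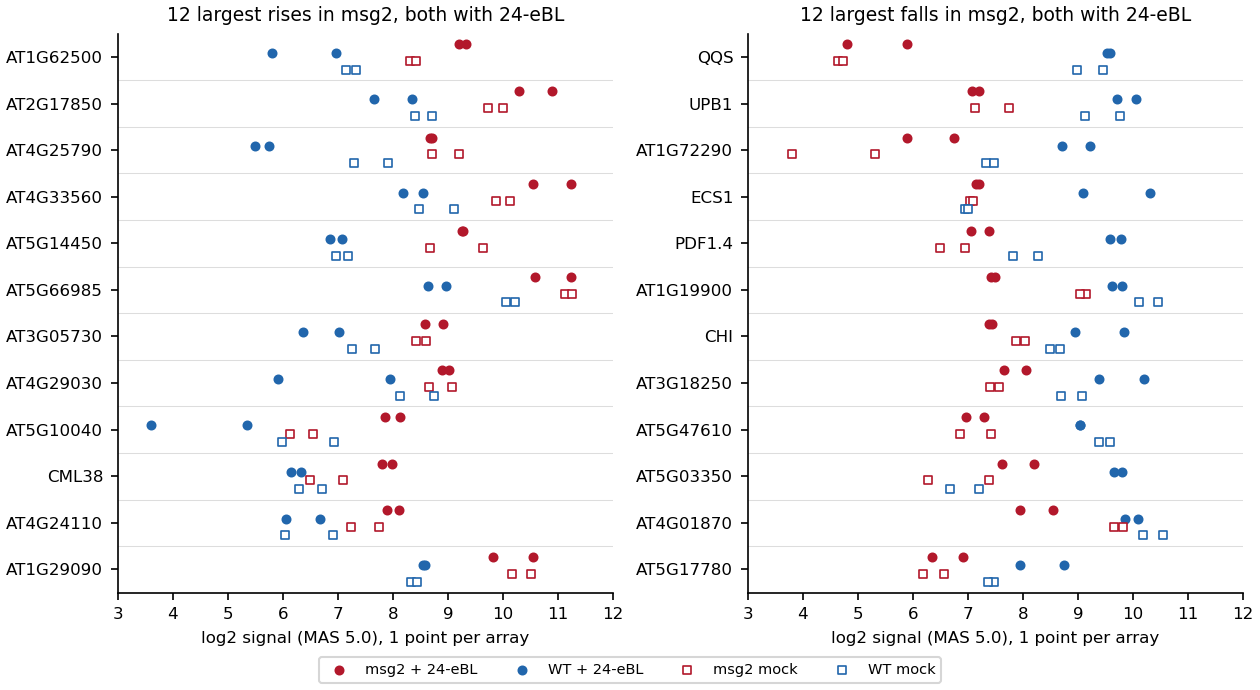
Log2 signal of the 12 largest rises (left) and the 12 largest falls (right) in msg2 against wild type, both with 24-eBL (filled circles, 1 per array), with the mock arrays as open squares. Filled red and blue points do not overlap for any of these genes, which were chosen for that; for ECS1 and AT5G03350 the mock genotypes lie together.

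The largest rises were in genes of several families. AT1G62500 had 9.32 and 9.20 in msg2 and 5.81 and 6.97 in wild type, the first of the wild-type values dim, and was at least 6.40-fold higher (2.87 ± 0.28, adjusted p = 4.00e-06). AT2G17850 had 10.89 and 10.28 in msg2 and 7.65 and 8.34 in wild type, and was 6.03-fold higher (2.59 ± 0.23, adjusted p = 1.65e-06). For both genes the lower msg2 array was more than 1 log2 unit above the higher wild-type array. AT4G25790, of the CAP family of secreted proteins that includes the PR-1 proteins, had 8.68 and 8.72 in msg2 and dim values of 5.75 and 5.49 in wild type (at least 6.02-fold higher, adjusted p = 2.96e-06). Its mock level in wild type was higher, at 7.30 and 7.91, against 9.21 and 8.72 in msg2. AT5G14450 had 9.25 and 9.27 in msg2 and 6.86 and 7.07 in wild type, and was 4.90-fold higher (2.29 ± 0.26, adjusted p = 1.99e-05). AT3G05730 rose 4.15-fold (adjusted p = 0.000147). AT1G29090 had 9.82 and 10.55 in msg2 and 8.55 and 8.59 in wild type (3.06-fold, adjusted p = 0.00311), with an adjusted p of 0.0585 without msg2 replicate 2. AT4G29030 had 8.89 and 9.03 in msg2 and 5.91 and 7.95 in wild type, the first of these dim, and its adjusted p of 0.00458 became 0.0503 without wild-type replicate 1 and 0.0727 with robust variances.

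Of the 12 largest rises 6 belong to a group of genes listed here as rising in Arabidopsis cells short of oxygen. The list was written from general knowledge after the values had been seen, and its membership was not checked against an annotation, so the counts describe it and do not test it. Of 48 such genes written down by locus, 26 were tested: 10 rose (38.5%), 2 fell (7.69%) and 14 were not called, with 20 of the 26 changes above 0. Their median change was 0.61, against −0.02 over all tested probe sets, of which 4.06% rose and 3.45% fell. AT4G33560 had 11.24 and 10.54 in msg2 and 8.19 and 8.54 in wild type, and was 5.75-fold higher (2.52 ± 0.25, adjusted p = 5.37e-06). AT5G66985 had 11.23 and 10.59 in msg2 and 8.64 and 8.96 in wild type, and was 4.33-fold higher (2.11 ± 0.19, adjusted p = 1.65e-06). AT4G10270 had 11.42 and 11.05 in msg2 and 9.93 and 9.76 in wild type (2.62-fold, adjusted p = 2.12e-05). In each of these the msg2 arrays lay wholly above the wild-type arrays, and replicate 1 was the higher msg2 array. CML38, a calmodulin-like calcium sensor, had 7.81 and 7.98 in msg2 and 6.14 and 6.33 in wild type, the first of these dim, and was at least 3.1-fold higher (1.66 ± 0.26, adjusted p = 0.000703). AT5G10040 had 7.85 and 8.12 in msg2 and dim values of 3.59 and 5.34 in wild type (at least 3.68-fold higher, adjusted p = 5.78e-05). AT4G24110 rose 3.1-fold (adjusted p = 0.00173), AT2G17850 is given above, and AT3G03270, AT3G27220 and AT5G26200 had changes of 1.21 ± 0.15, 1.12 ± 0.19 and 0.94 ± 0.19 (adjusted p = 4.30e-05, 0.000982 and 0.00485). The call of AT5G26200 was lost without wild-type replicate 2 (adjusted p = 0.0697).

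The group did not move as one. AT4G17670 and AT3G23170 fell, by −0.77 ± 0.17 and −0.73 ± 0.18 (adjusted p = 0.0116 and 0.0187). AT4G17670 lost its call without wild-type replicate 2 or either msg2 array (adjusted p up to 0.0754), and AT3G23170 without wild-type replicate 2 or msg2 replicate 2 (up to 0.167). PDC2, a pyruvate decarboxylase of ethanolic fermentation, was not called (0.57 ± 0.22, adjusted p = 0.128), nor was AT1G33055 (0.18 ± 0.14, adjusted p = 0.492). Without 24-eBL 5 of the 26 were called higher in msg2, against 2.12% of all tested probe sets. The median mock change of the 26 was 0.21, against 0.05 over all tested probe sets. Those 5 were AT2G17850, AT4G33560, AT5G66985, AT5G26200 and AT3G27220. Each of the 5 mock calls was lost without some single array, and also in a fit without the intensity trend. Each gene's log2 deviation from its own mean over the 12 arrays had a median over the 26 genes of 0.21 and 0.08 on the msg2 arrays with 24-eBL and −0.59 and −0.56 on the wild-type arrays with 24-eBL. The wild-type arrays with 24-eBL were the lowest of the 12 in this measure and the axr2 arrays the highest, at 0.40 to 0.60. Over all tested probe sets the same measure stayed between −0.05 and 0.08.

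**Figure D2:**
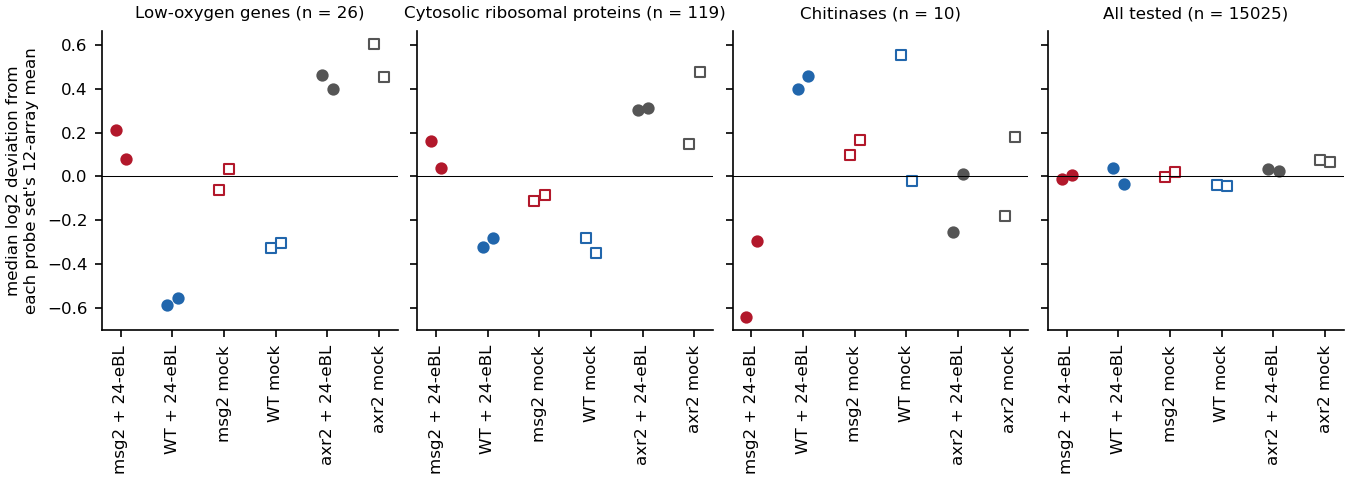
Median log2 deviation of each group's genes from their own mean over 12 arrays, 1 point per array, for low-oxygen genes, cytosolic ribosomal protein genes, chitinase genes and all tested probe sets (circles with 24-eBL, squares mock). Low-oxygen and ribosomal protein genes were higher on the msg2 arrays than on the wild-type arrays with 24-eBL and highest on axr2 arrays, apart from axr2 mock replicate 1 for ribosomal proteins, whereas chitinase genes were lower in msg2.

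Genes for proteins of the cytosolic ribosome, which translates nuclear-encoded messages, were slightly higher in msg2. Of 119 tested members 32 rose (26.9%, against 4.06% of all tested probe sets), none fell (3.45% of all tested) and 87 were not called, and 112 of the 119 changes were above 0. At an unadjusted p under 0.05 in the same limma fit 66 were higher and 2 lower, against 3115 of all 15025 tested probe sets in either direction. Their median change was 0.39 (range −0.51 to 1.17), against −0.02 over all tested probe sets. This group, too, was written down by locus from general knowledge after the values had been seen. AT4G30800 had 8.5 and 7.74 in msg2 and 6.95 and 6.95 in wild type, and was 2.24-fold higher (1.17 ± 0.23, adjusted p = 0.00485; 0.127 without msg2 replicate 1). AT4G13170 had 12.02 and 12.13 in msg2 and 11.23 and 11.36 in wild type, and was 1.72-fold higher (0.78 ± 0.15, adjusted p = 0.00421). AT3G16080 was 1.90-fold and AT3G07110 1.53-fold higher (adjusted p = 0.00636 and 0.00655), and both lost their call without msg2 replicate 1 (adjusted p up to 0.0795 and 0.0658), AT3G16080 also without wild-type replicate 2 and AT3G07110 also without wild-type replicate 1.

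The size of the ribosomal shift held when single arrays were left out, and its number of calls did not. The median change was 0.32 without msg2 replicate 1, when 2 of 119 rose, 0.46 without msg2 replicate 2 (15 rose), 0.36 without wild-type replicate 1 (12 rose) and 0.41 without wild-type replicate 2 (7 rose). With all arrays 4 rose in a fit without the intensity trend and 16 without the filter on dim probe sets. The median deviation of the 119 genes from their own means was 0.16 and 0.04 on the msg2 arrays with 24-eBL and −0.32 and −0.28 on the wild-type arrays with 24-eBL. Without 24-eBL it was −0.11 and −0.09 in msg2 and −0.28 and −0.35 in wild type. In that mock comparison 6 of the 119 were called higher and 1 lower in msg2, against 2.12% and 2.00% of all tested probe sets. Many ribosomal proteins have near-identical gene copies, and cross-hybridisation between them was not tested.

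Several chitinase genes were lower in msg2. Chitinases cleave the chitin of fungal walls, and of 10 tested genes of this family 4 fell, none rose and 1 change was above 0, with a median change of −0.84. Over all tested probe sets 3.45% fell and 4.06% rose, with a median of −0.02. At an unadjusted p under 0.05 in limma 4 were lower and 1 higher, against 3115 of all 15025 tested probe sets in either direction. The chitinase median was −0.27 with dim values raised, and the family was listed after the values had been seen. CHI had 7.39 and 7.43 in msg2 and 9.84 and 8.95 in wild type, and was 3.96-fold lower (−1.98 ± 0.24, adjusted p = 4.76e-05). AT2G43590 had 11.52 and 11.64 in msg2 and 12.73 and 12.68 in wild type, and was 2.18-fold lower (−1.12 ± 0.16, adjusted p = 0.000217). ChiC had 8.05 and 8.57 in msg2 and 9.40 and 9.61 in wild type, and was 2.29-fold lower (adjusted p = 0.00096). The arrays of the genotypes did not overlap for these genes, and AT2G43610, the other fall, was 1.82-fold lower but was lost without wild-type replicate 2 or msg2 replicate 1 (adjusted p up to 0.135). Without 24-eBL AT2G43620 and AT4G01700 rose in msg2, the second of them not without either msg2 mock array (adjusted p up to 0.0601). In the salicylate and pathogen list none of 5 tested genes was called, and 1 was lower at an unadjusted p under 0.05 in limma.

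In the jasmonate and wound list of 5 tested genes PDF1.4 fell, as given above, and JAL33 rose. JAL33, a jacalin-related lectin, had 12.37 and 12.78 in msg2 and 11.55 and 11.52 in wild type, a 2.06-fold higher level (1.04 ± 0.16, adjusted p = 0.0007). The related JAL22 and JAL34 had changes of 0.51 ± 0.18 and 0.36 ± 0.13 and were not called (adjusted p = 0.0897 and 0.114). Class III peroxidases build and loosen walls with hydrogen peroxide. Of 5 tested genes 1 rose and 2 fell, against 4.06% and 3.45% of all tested probe sets. Prx37 had 9.17 and 9.05 in msg2 and 8.05 and 7.82 in wild type, and was 2.26-fold higher (adjusted p = 0.000703). AT5G64120 had 10.62 and 10.86 in msg2 and 11.89 and 11.52 in wild type, and was 1.96-fold lower (adjusted p = 0.00135). PRX52 had 6.09 and 5.37 in msg2, the second of them dim, and 7.72 and 7.42 in wild type, and was at least 2.78-fold lower (adjusted p = 0.00832; up to 0.0878 without wild-type replicate 1 or msg2 replicate 2). Whether any of these peroxidase genes responds to UPB1 was not tested.

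Enzymes that conjugate auxin were the auxin genes with the clearest changes. WES1 (GH3.5), which joins auxin to amino acids, had 9.56 and 9.63 in msg2 and 10.97 and 10.90 in wild type, and was 2.53-fold lower (−1.34 ± 0.15, adjusted p = 1.65e-05). IAGLU, a glucosyltransferase of auxin, had 9.26 and 9.68 in msg2 and 10.85 and 10.81 in wild type, and was 2.56-fold lower (−1.36 ± 0.18, adjusted p = 0.000102). In both genes all msg2 arrays lay below all wild-type arrays. GH3.17, another enzyme of the GH3 family, moved the other way, with 10.56 and 10.80 in msg2 and 10.17 and 10.06 in wild type (1.48-fold, adjusted p = 0.0376). Its call was lost without any 1 of the 4 compared arrays or of the 2 msg2 mock arrays (adjusted p up to 0.234). GH3.3, the last of 4 tested, was not called (−0.51 ± 0.26, adjusted p = 0.265). The median change of the 4 was −0.93, or −0.72 without msg2 replicate 1.

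The auxin response genes that could be read were few and none was called. The Aux/IAA genes IAA29, IAA18 and IAA20 had changes of 0.77 ± 0.39, −0.002 ± 0.20 and −0.32 ± 0.17 (adjusted p = 0.277, 0.998 and 0.292). Of 3 SAUR genes, which promote cell expansion, AT2G18010 had a change of −2.01 ± 0.63 (adjusted p = 0.0596), AT1G43040 of −0.98 ± 0.37 (adjusted p = 0.13) and AT3G53250 of −0.15 ± 0.40 (adjusted p = 0.882). At an unadjusted p under 0.05 none of the Aux/IAA genes and 2 of the SAUR genes differed in the limma fit. Over all tested probe sets 3115 of 15025 did. Without 24-eBL members moved both ways: IAA29 was called higher in msg2 (1.75 ± 0.39, adjusted p = 0.0167; up to 0.142 without any 1 of the 4 mock arrays of msg2 and wild type). AT2G18010 was called lower in msg2 without 24-eBL (−3.18 ± 0.63, adjusted p = 0.0074; up to 0.0894 without either wild-type mock array or msg2 mock replicate 1).

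Among the cell-wall genes a few enzymes of xyloglucan, the glucan that tethers cellulose, and a pair of expansin-family genes changed. Of 8 tested xyloglucan endotransglucosylase/hydrolase (XTH) genes, which cut and rejoin xyloglucan, 1 rose (12.5%, against 4.06% of all tested probe sets) and 2 fell (25%, against 3.45%), with a median change of −0.11. XTH19 had 11.91 and 11.96 in msg2 and 12.77 and 12.93 in wild type, and was 1.89-fold lower (−0.92 ± 0.15, adjusted p = 0.000714). XTH33 had 10.39 and 10.25 in msg2 and 11.23 and 11.37 in wild type, and was 1.97-fold lower (−0.98 ± 0.19, adjusted p = 0.00393). XTH32 had 11.47 and 11.33 in msg2 and 10.54 and 10.72 in wild type, and was 1.71-fold higher (0.77 ± 0.15, adjusted p = 0.00449; up to 0.0662 without wild-type replicate 1 or msg2 replicate 1). XTH20 had a change of −0.01 ± 0.23 and was not called. Without 24-eBL all 3 had changes of the same sign (−0.63, −0.78 and 0.57 for XTH19, XTH33 and XTH32; adjusted p = 0.0206, 0.0262 and 0.044). Each of these mock calls was lost without any 1 of the 4 mock arrays of msg2 and wild type (adjusted p up to 0.173, 0.241 and 0.299). In a fit without the intensity trend all 3 mock calls were lost too. That of XTH32 was also lost without either msg2 array with 24-eBL, with median centring, without the filter and with the replicate number as a block.

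Expansins loosen walls without cutting them. Of 15 tested family members 2 fell (13.3%, against 3.45% of all tested probe sets) and none rose, with a median change of −0.14. At an unadjusted p under 0.05 in limma 3 were lower and 0 higher, against 3115 of all 15025 tested probe sets in either direction. EXPA8 had 11.81 and 11.88 in msg2 and 12.35 and 12.61 in wild type, and was 1.56-fold lower (adjusted p = 0.0189). EXLA2 had 8.59 and 9.03 in msg2 and 9.49 and 9.61 in wild type, and was 1.67-fold lower (adjusted p = 0.0303). Both calls were lost without 3 of the 4 compared arrays, EXPA8 without wild-type replicate 2 or either msg2 array (adjusted p up to 0.156) and EXLA2 without either wild-type array or msg2 replicate 1 (adjusted p up to 0.303). The root-hair expansins EXPA7 and EXPA18 had changes of −0.15 ± 0.45 and −0.18 ± 0.24 and were not called. All 4 compared values of EXPA7 were dim. A further list held 7 tested wall genes, the cellulose synthase-like CSLA03, CSLC04, CSLC5, CSLC6 and CSLD2 with COB and IRX15. Of these 2 fell (28.6%, against 3.45% of all tested probe sets) and none rose. CSLC5 and CSLC04, of the family that makes the xyloglucan backbone, were 1.82-fold and 1.62-fold lower (adjusted p = 0.0142 and 0.0408). CSLC5 lost its call without wild-type replicate 2 or either msg2 array (adjusted p up to 0.169). CSLC04 lost it without any 1 of the 4 compared arrays, the 2 wild-type mock arrays or the 2 axr2 arrays with 24-eBL (adjusted p up to 0.199), and also with arrays centred on their medians and without the filter.

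**Figure D3:**
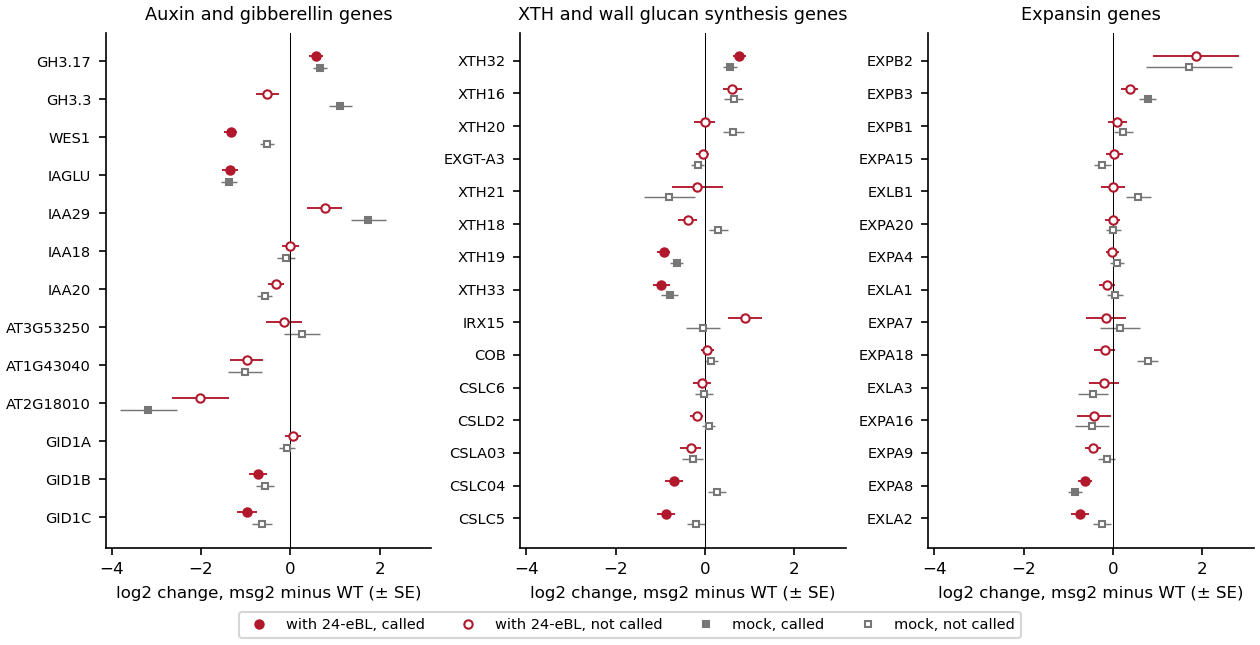
Log2 change ± SE, msg2 minus wild type, with 24-eBL (red circles) and mock (grey squares). Every tested gene of the auxin conjugation, Aux/IAA, SAUR, gibberellin, XTH, cellulose synthase-like (with COB and IRX15) and expansin lists is drawn. Filled points had an adjusted p under 0.05 in limma. With 24-eBL the filled points are WES1, IAGLU, GID1B, GID1C, XTH19, XTH33, CSLC04, CSLC5, EXPA8 and EXLA2 below 0 and GH3.17 and XTH32 above 0.

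Of the 3 gibberellin receptor genes 2 fell in msg2 and none rose, against 3.45% and 4.06% of all tested probe sets. GID1C had 7.46 and 7.44 in msg2 and 8.34 and 8.52 in wild type, and was 1.97-fold lower (−0.98 ± 0.22, adjusted p = 0.012). GID1B had 8.90 and 9.27 in msg2 and 9.71 and 9.91 in wild type, and was 1.65-fold lower (−0.72 ± 0.19, adjusted p = 0.0294). The genotypes did not overlap for either, but GID1C lost its call without wild-type replicate 2 or either msg2 array (adjusted p up to 0.0822), and GID1B without either wild-type array or msg2 replicate 1 (adjusted p up to 0.273). The third receptor gene, GID1A, had a change of 0.06 ± 0.18 and was not called.

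Single genes of other lists changed. GSTU20, a glutathione transferase, had 10.80 and 10.82 in msg2 and 9.75 and 9.45 in wild type, and was 2.31-fold higher (1.21 ± 0.16, adjusted p = 0.000122). The dehydrin gene LTI30 had 6.59 and 7.38 in msg2 and 8.76 and 8.47 in wild type, and was 3.09-fold lower (−1.63 ± 0.30, adjusted p = 0.00227; 0.0613 without msg2 replicate 1). LEA18, of the late embryogenesis abundant proteins, had 7.09 and 6.30 in msg2 and dim values of 5.65 and 4.79 in wild type, and was at least 1.5-fold higher (adjusted p = 0.0291; up to 0.288 without wild-type replicate 2 or msg2 replicate 1). With dim values raised the change of LEA18 was 0.59 and was not called, which left the fall of LTI30 as the call of this dehydration list of 7. The histone H2B gene HTB1 was 1.66-fold higher (adjusted p = 0.0136), and its call was lost without wild-type replicate 1 or either msg2 array (adjusted p up to 0.0999). AT1G59740, a transporter of the NPF family, had 6.24 and 5.71 in msg2, the second of these dim, and 7.53 and 7.68 in wild type (at least 2.70-fold lower, adjusted p = 0.00334). The oleosin gene OLEO3, for an oil-body protein, was 1.55-fold lower (adjusted p = 0.0174; up to 0.156 without either wild-type array or msg2 replicate 1).

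The clock gene GI and the tetraspanin gene TET6 were 1.66-fold and 1.62-fold lower, close to the threshold (adjusted p = 0.0443 and 0.0417). Both lost their call without any 1 of the 4 compared arrays or either wild-type mock array, and GI also without either msg2 mock array (adjusted p up to 0.305 for GI and 0.255 for TET6), and both with quantile normalisation, with arrays centred on their medians, without the filter and with dim values raised. GI also lost it with the replicate number as a block (adjusted p = 0.0527), and TET6 with the compared arrays alone. UGT85A7 and CYP71B37 had calls that rested on dim values: their changes of 3.29 ± 0.88 and 1.75 ± 0.44 became 0.02 and −0.04 with dim values raised. Both also lost their call without any 1 of the 4 compared arrays (adjusted p up to 0.152 and 0.111), and UGT85A7 without wild-type mock replicate 1. The tropinone reductase-like family, short-chain dehydrogenases, was listed after the values had been seen, and 5 of its genes were tested. Over all tested probe sets 3.45% fell and 4.06% rose. In this family TRI, AT2G29310 and AT2G29340 fell, by 1.95-fold, 3.08-fold and 1.87-fold, and AT2G29260 rose at least 1.63-fold. Of these TRI lost its call without msg2 replicate 2 (adjusted p = 0.063), AT2G29310 without wild-type replicate 2 or msg2 replicate 1 (up to 0.112), AT2G29340 without wild-type replicate 1 or msg2 replicate 1 (up to 0.148) and AT2G29260 without any 1 of the 4 compared arrays (up to 0.132). Among 11 tested genes of the CAP family 1 rose and 1 fell (9.09% each, against 4.06% and 3.45% of all tested probe sets). AT4G31470 fell 1.97-fold (adjusted p = 0.00415, a call lost without msg2 replicate 1), and the rise was that of AT4G25790.

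Several lists held no call in the limma fit. These were 12 nuclear photosynthesis and chlorophyll genes (median change 0.07), 11 ATG8 autophagy genes (−0.15), 9 sugar transport and response genes (0.20), 8 tubulin and actin genes (0.01) and 2 genes of brassinosteroid signalling (−0.35). At an unadjusted p under 0.05 there were 1, 2, 0, 2 and 1 of them, against 3115 of all 15025 tested probe sets. The lack of a call does not show that the genotypes were alike. Of 58 tested plastid-encoded genes rpoC1, ndhJ and atpA rose (5.17%, against 4.06% of all tested) and none fell, with a median change of 0.07. At an unadjusted p under 0.05 in limma 10 were higher and 3 lower, against the same 3115 of 15025 in either direction. The gene rpoC1, for a subunit of the plastid RNA polymerase, had 7.91 and 8.08 in msg2 and 6.98 and 6.32 in wild type (2.54-fold, adjusted p = 0.0174). Its call was lost without wild-type replicate 2 or either msg2 array (adjusted p up to 0.153), and those of ndhJ and atpA without any 1 of the 4 compared arrays (up to 0.26 and 0.196), that of atpA also without either axr2 array with 24-eBL.

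The genotypes were also compared without 24-eBL, on 4 other arrays, which asks how far the differences with the hormone are there without it. Without 24-eBL 619 probe sets were called (4.12%), 319 higher in msg2 (2.12%) and 300 lower (2.00%), against 203 and 371 after median centring. Of the rises with 24-eBL 116 were also called as rises without it, which is 19.0% of the 610 with 24-eBL and 36.4% of the 319 without. Of the falls 161 were shared, 31.1% of the 518 with 24-eBL and 53.7% of the 300 without. Only 3 probe sets were called in opposite directions, and 1008 of the 1128 calls with 24-eBL (89.4%) had the same sign without it. The share of equal sign over all tested probe sets was not counted, so the 89.4% has no background beside it. Across the 15025 probe sets, which are not independent replicates, the changes had a Pearson r of 0.42 and a Spearman rho of 0.37.

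The genes with the largest changes in both conditions include AT5G14450, AT1G29090, QQS, AT1G72290, UPB1 and AT5G47610. The mock call of AT1G72290 was lost without either wild-type mock array or msg2 mock replicate 1 (adjusted p up to 0.154). AT5G14450 had 8.68 and 9.65 in msg2 and 7.19 and 6.96 in wild type without 24-eBL (2.09 ± 0.26, adjusted p = 0.000128), close to its change of 2.29 with it. AT3G22550 had 8.28 and 8.27 in msg2 and 7.08 and 6.49 in wild type with 24-eBL (2.82-fold, adjusted p = 0.000499), and 8.32 and 8.39 in msg2 and 6.54 and 6.71 in wild type without. AT5G47610 had 7.29 and 6.97 in msg2 and 9.04 and 9.03 in wild type with 24-eBL (−1.91 ± 0.27), and 7.42 and 6.85 in msg2 and 9.58 and 9.38 in wild type without (−2.34 ± 0.27). In these genes the genotype gap was there under both conditions. AT3G05190, AT1G13670 and AT5G66780 were also called in both, but each of their mock calls was lost without some single mock array. Those of AT3G05190 and AT1G13670 were also lost in a fit without the intensity trend, and that of AT1G13670 without the filter. AT3G05190 was at least 2.50-fold higher with 24-eBL (adjusted p = 0.0106; up to 0.0936 without wild-type replicate 2 or msg2 replicate 2). AT1G13670 was at least 1.92-fold lower (adjusted p = 0.000544), with both msg2 arrays dim. The change of AT5G66780 (4.08 ± 0.83) was −0.02 with dim values raised, and its call was lost without msg2 replicate 2 (adjusted p = 0.0579).

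**Figure D4:**
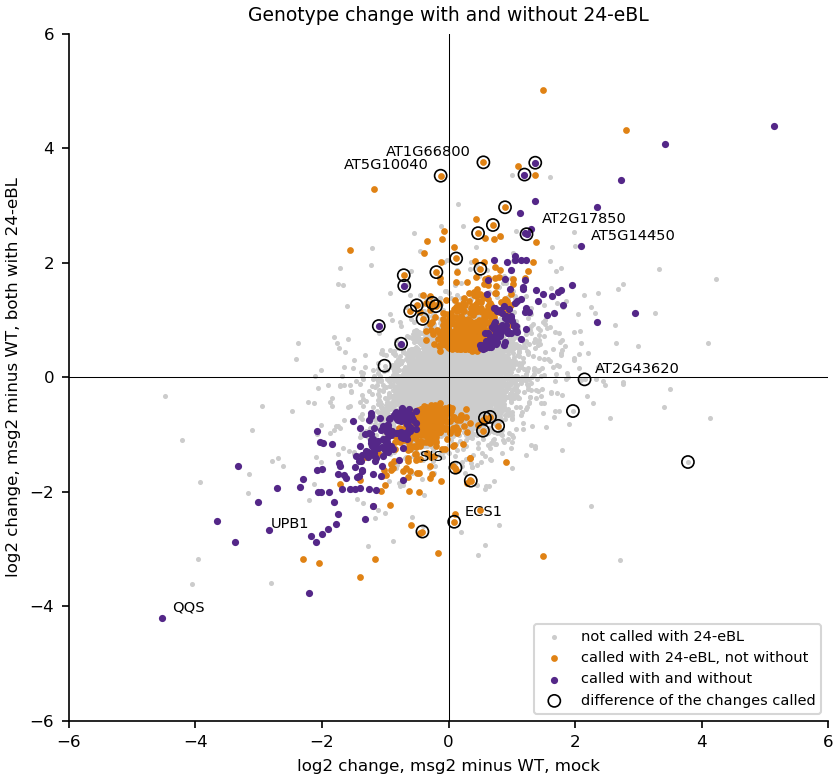
Log2 change, msg2 minus wild type, with 24-eBL (vertical) against that of mock seedlings (horizontal) for 15025 tested probe sets, coloured by the calls and circled where the difference of the changes was called. Most called points lie in the quadrants of equal sign, with QQS at the lower left, and the circled points lie away from the diagonal.

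A total of 848 probe sets were called with 24-eBL and not without it, which does not itself show that the change differed. The difference of the changes, tested as an interaction in the same fit, was called for 32 probe sets (0.213%), 21 higher (0.140%) and 11 lower (0.0732%), and for 1384 at an unadjusted p under 0.05. Of the 848, 22 were among the 32. The split was 26 and 8 with arrays centred on their medians, when the median over all tested probe sets was 0.09 in place of −0.04, and 20 and 24 with dim values raised. The count was 16 without wild-type mock replicate 1, 15 without msg2 mock replicate 1, 16 without msg2 replicate 1 with 24-eBL and 50 without wild-type replicate 2 with 24-eBL. Of the 32 called differences 12 were of single genes.

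In ECS1, SIS and AT5G10040 the genotypes differed with 24-eBL and lay together without it. ECS1 had 7.04 and 7.09 in msg2 and 6.95 and 7.0 in wild type without 24-eBL, against the low msg2 and high wild-type values given above with it (difference −2.61 ± 0.43, adjusted p = 0.0111; up to 0.0568 without wild-type mock replicate 1, msg2 mock replicate 1 or msg2 replicate 1). SIS, a serine-rich gene named for its induction by salt, had 9.14 and 9.19 in msg2 and 10.82 and 10.67 in wild type with 24-eBL, and was 2.99-fold lower (−1.58 ± 0.18, adjusted p = 2.23e-05). Without 24-eBL SIS had 10.72 and 10.84 in msg2 and 10.50 and 10.84 in wild type (difference −1.69 ± 0.26, adjusted p = 0.00574; 0.0519 without wild-type mock replicate 1). AT2G43535 had 10.31 and 10.52 in msg2 and 8.96 and 9.27 in wild type with 24-eBL, and 11.07 and 11.14 in msg2 and 11.10 and 11.62 in wild type without. It was 2.46-fold higher with 24-eBL (adjusted p = 0.00022), and its difference of 1.55 ± 0.26 had an adjusted p of 0.0111, or up to 0.0853 without wild-type mock replicate 2, wild-type replicate 1, msg2 mock replicate 1 or msg2 replicate 2.

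AT5G10040 had 6.12 and 6.54 in msg2 and 6.93 and 5.99 in wild type without 24-eBL (difference 3.65 ± 0.62, adjusted p = 0.0134; up to 0.0995 without wild-type mock replicate 1, msg2 mock replicate 1 or either msg2 array with 24-eBL), and with dim values raised the difference was not called. AT1G66800 had 6.64 and 7.33 in msg2 and dim values of 3.36 and 3.10 in wild type with 24-eBL, and was at least 1.84-fold higher (adjusted p = 5.43e-07). With dim values raised that change was 0.88 and no longer called (adjusted p = 0.0852). Its difference of 3.21 ± 0.43 became 0.33 and was not called either. AT2G43620, a gene of the chitinase family, and the plastid gene rpl22, for a protein of the plastid ribosome, were called in the difference but not with 24-eBL (changes of −0.04 ± 0.23 and −0.59 ± 0.30). AT2G43620 had 9.35 and 9.13 in msg2 and 9.48 and 9.07 in wild type with 24-eBL, so the genotypes overlapped, and 7.83 and 8.48 in msg2 and 5.83 and 6.19 in wild type without. For rpl22 the values were 6.31 and 6.34 in msg2 and 7.18 and 6.65 in wild type with 24-eBL, and 7.72 and 7.83 in msg2 and 5.29 and 6.33 in wild type without. Its call was lost without wild-type mock replicate 1, wild-type replicate 1, either msg2 mock array or msg2 replicate 1 (adjusted p up to 0.0581).

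**Figure D5:**
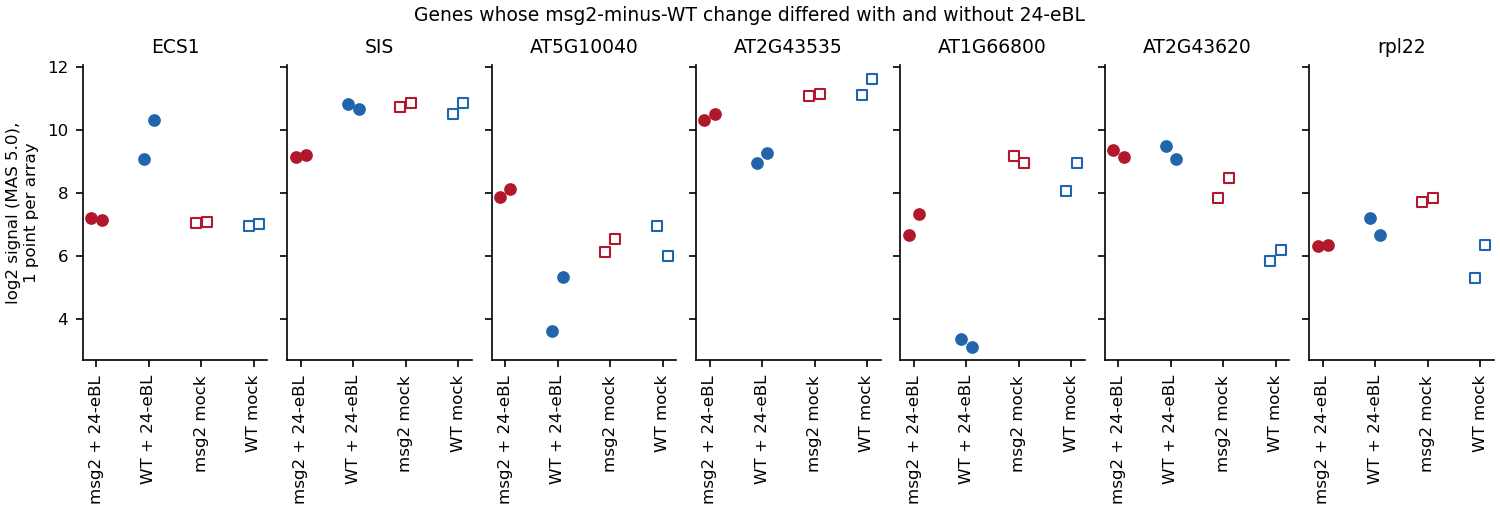
Log2 signal of the genes named for a called difference between the genotype change with 24-eBL (filled circles) and without it (open squares), 1 point per array, msg2 in red and wild type in blue. In the first 5 panels the genotypes separate with 24-eBL. In AT2G43620 they overlap with 24-eBL, and msg2 is higher without it. In rpl22 msg2 is lower with 24-eBL, where the change was not called, and higher without it.

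On the axr2 arrays with 24-eBL several of these genes lay on the msg2 side of wild type, given as levels only because a comparison would reuse the wild-type arrays. AT2G17850 had 11.34 and 10.98 there, AT4G33560 11.81 and 11.12, AT5G66985 11.29 and 11.10 and AT4G10270 11.69 and 11.83, each above wild type with 24-eBL. UPB1 had 4.81 and 5.92, XTH19 9.24 and 9.17 and EXPA8 8.46 and 8.31, each below both msg2 and wild type. XTH32 had 12.82 and 12.45, above both. Other genes did not follow msg2. Among them PRX52 (7.71 and 7.51) and QQS had axr2 values near or above those of wild type. GH3.17 had 10.26 and 9.92, near wild type. AT2G43535 had 8.42 and 8.59, below wild type, whereas msg2 lay above it.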

How the data were processed

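Signals on a log2 scale, 1 for each probe set of 12 ATH1 arrays, were used as deposited. The authors computed them with MAS 5.0, per the series' design text and the submitters' processing notes. The 2% trimmed mean of the linear signal was 500.05 to 500.06 throughout, which shows a common scaling, and no further normalisation was applied. Control probe sets (64 of 22810) were left out. A gene is named where the probe table used pairs the probe set with 1 gene (13513 of 22746; 503 had several and 8730 none), with symbols updated to assembly TAIR10.1.

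Testing required a signal above the array's own 40th percentile on 2 or more arrays. One mean per group was fitted to all 12 arrays with limma 3.58.1 (R 4.3.3; lmFit, and eBayes with an intensity trend; 6 residual and 12.03 prior degrees of freedom), and p was adjusted by Benjamini-Hochberg over all 15025 tested probe sets. The script was tested on simulated data. The precision is limited by the 2 arrays a group. If these were not independent cultures, p-values measure only their own spread.

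Genes named were the 12 largest rises and 12 largest falls among single-gene calls without overlap and without a dim value in the higher genotype, up to 4 called genes of each list by adjusted p, up to 6 single-gene calls of the interaction, and 5 rises and 5 falls called with and without 24-eBL; other genes of a list are given to describe it and were chosen after their values were seen. The members and lists were chosen with earlier results of these data known. Of the lists, 41 matched symbols in the table, and 6 (low-oxygen, ribosomal protein, chitinase, tropinone reductase-like, CAP and plastid-encoded genes) were written by locus from general knowledge after the values had been seen, with no annotation to check membership, so lists have counts and medians and no test. CHI was moved from the flavonoid list to the chitinases for the same reason. Arrays of the same replicate number showed little shared deviation. The correlation of deviations from the group means was 0.001 between msg2 and wild type with 24-eBL. Over 15 pairs of groups it was −0.080 to 0.071. Whether arrays of the same number were grown or handled together cannot be told from this. Results were recomputed with quantile normalisation, centred arrays, an offset of 16, the 60th percentile or nothing as the filter, dim values raised, no trend, robust variances, only the compared arrays, the replicate number as a block, a threshold of 0.10, at least a 2-fold change, and each array left out. No genome or sequence table of these genes was used, so no sequence is shown.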

Additional observations from a re-analysis of the deposited data

Results flagged for a closer look

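The difference between the genotype change with 24-eBL and that without it, tested as an interaction in limma, singled out 7 of the genes named. The differences were 3.21 for AT1G66800 (adjusted p = 0.0017), −2.18 for AT2G43620 (0.00341), −1.69 for SIS (0.00574), −2.55 for rpl22 (0.0111), −2.61 for ECS1 (0.0111), 1.55 for AT2G43535 (0.0111) and 3.65 for AT5G10040 (0.0134). Those of AT1G66800 and AT5G10040 were not called with dim values raised, and none of the 7 was called in a fit without the intensity trend. Without the filter on dim probe sets those of AT5G10040, ECS1 and rpl22 were not called either. With 2 arrays a group, single arrays could not be screened as outliers.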

How the results depend on the processing

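With 24-eBL the number of calls was 1128, and it was 502 without the intensity trend, 396 with a 2-fold minimum and 370 to 1301 when single arrays were left out. Without 24-eBL it was 619, against 181 without the trend, 1035 with the compared arrays alone, 1043 at an adjusted p under 0.10, 260 with a 2-fold minimum and 144 to 756 without single arrays. Here the arrays that moved it by over 1.5 times were wild-type mock replicates 1 (171) and 2 (341) and msg2 mock replicates 1 (217) and 2 (144). The interaction had 32 calls, against 14 without a filter, 1 without the trend, 51 with the compared arrays alone, 57 at an adjusted p under 0.10 and 15 to 50 without single arrays. The other alternatives stayed within 1.5 times of each count. With the replicate number as a block there were 1014, 559 and 31 calls. The check of replicate numbers found little shared deviation, but it cannot show whether those arrays were handled together. Of the named calls with 24-eBL the block ended that of GI. Of 78 named genes called with 24-eBL 40 kept their call in every leave-out and in 10 other alternatives, 37 lost it in at least 1 leave-out and 24 in at least 1 other. With dim values raised CYP71B37 (−0.043) and AT5G66780 (−0.021) changed sign. All 4 compared values of CYP71B37 and 3 of the 4 of AT5G66780 were dim, so that raising replaced them with the percentiles of their arrays.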
